A study of Homo sapiens with 6 samples.

Results

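The genes of myosin heavy chains, myosin light chains and tropomyosins were followed in RNA sequencing libraries of A549, a line from a human lung adenocarcinoma, with and without silencing of FSCN1. FSCN1 encodes fascin, which bundles actin filaments. The genes were taken by symbol from the protein-coding rows of the count table (MYH, MYL and MYO genes and TPM1 to TPM4), which gave 46 of 30230 rows. There were 3 control libraries (NC) and 3 libraries of cells given an siRNA against FSCN1 (siFSCN1). The methods of the study give the control cells a scrambled siRNA, while their sample label names a control plasmid. The same siRNA sequence was used in every silenced library, so an effect of that siRNA on other transcripts cannot be told apart from the loss of FSCN1. The comparison asks which transcripts of the contractile machinery differ when FSCN1 is silenced.

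Myosins are motors that walk along or pull on actin filaments. Class II myosins are made of heavy chains, which carry the motor, with essential light chains, which stiffen the lever arm, and regulatory light chains, whose phosphorylation switches the motor on. In cells that are not muscle, the heavy chains are the products of MYH9, MYH10 and MYH14. The unconventional myosins, named MYO, carry membranes and other cargo or tether membranes to actin. Tropomyosins form coiled coils that lie along the actin filament and govern which myosins and other proteins may bind it.

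The libraries held between 27967301 and 36560919 counts. Counts differed by more than sampling noise in every pair of libraries (chi-square over degrees of freedom 3.06 to 8.16 for replicates and 106 to 131 across groups). FSCN1 had 211, 219.7 and 212 CPM (counts scaled to library size, with a TMM factor for composition) in NC replicates 1, 2 and 3 and 18.2, 11.8 and 13.2 CPM in siFSCN1. Its log2 fold change, given here and throughout as siFSCN1 over NC, was -3.89 ± 0.094 (SE; adjusted p = 8.1e-16), which left 6.75% of the NC level. Signed values given without a unit are log2 fold changes. All 7 epithelial and A549 markers had a mean of at least 1 FPKM (fragments scaled to exon length and library depth), and their summed FPKM was 5413 to 5948 in NC and 4722 to 5086 in siFSCN1. None of the 10 striated muscle (7 of them with a row), 6 fibroblast or 4 blood markers reached 1 FPKM. Of 6 smooth muscle markers, ACTA2 and SMTN did, and the summed FPKM of the list was 3.69 to 3.89 in NC and 4.52 to 4.85 in siFSCN1. The part of these marker levels in the results was not tested.

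Silencing of FSCN1 was accompanied by changes in both directions within the myosin and tropomyosin genes. Of the 46 genes, 33 passed the filter on low counts. Among the 33, siFSCN1 was higher for 16 and lower for 14 at an adjusted p under 0.05 in edgeR, and 3 (TPM4, MYO9B and MYO1A) were not called. Over all 17076 genes tested, 35.1% were called higher and 33.2% lower, so that calls as such were common. The median log2 fold change was 0.02 over the 33 genes and 0.03 over all genes tested. The CPM of 30 of the 33 genes did not overlap between the groups, against 71.2% of all genes tested. Calls of at least 2-fold were made for 3 genes that were higher (MYH3, MYL9 and MYO15A) and 2 that were lower (TPM3 and MYH15), where the background over all genes was 11.7% higher and 4.85% lower. Of these 5, only TPM3 had a mean above 1 FPKM. In bulk RNA, fewer cells with a transcript and less of it per cell cannot be told apart.

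**Figure D1:**
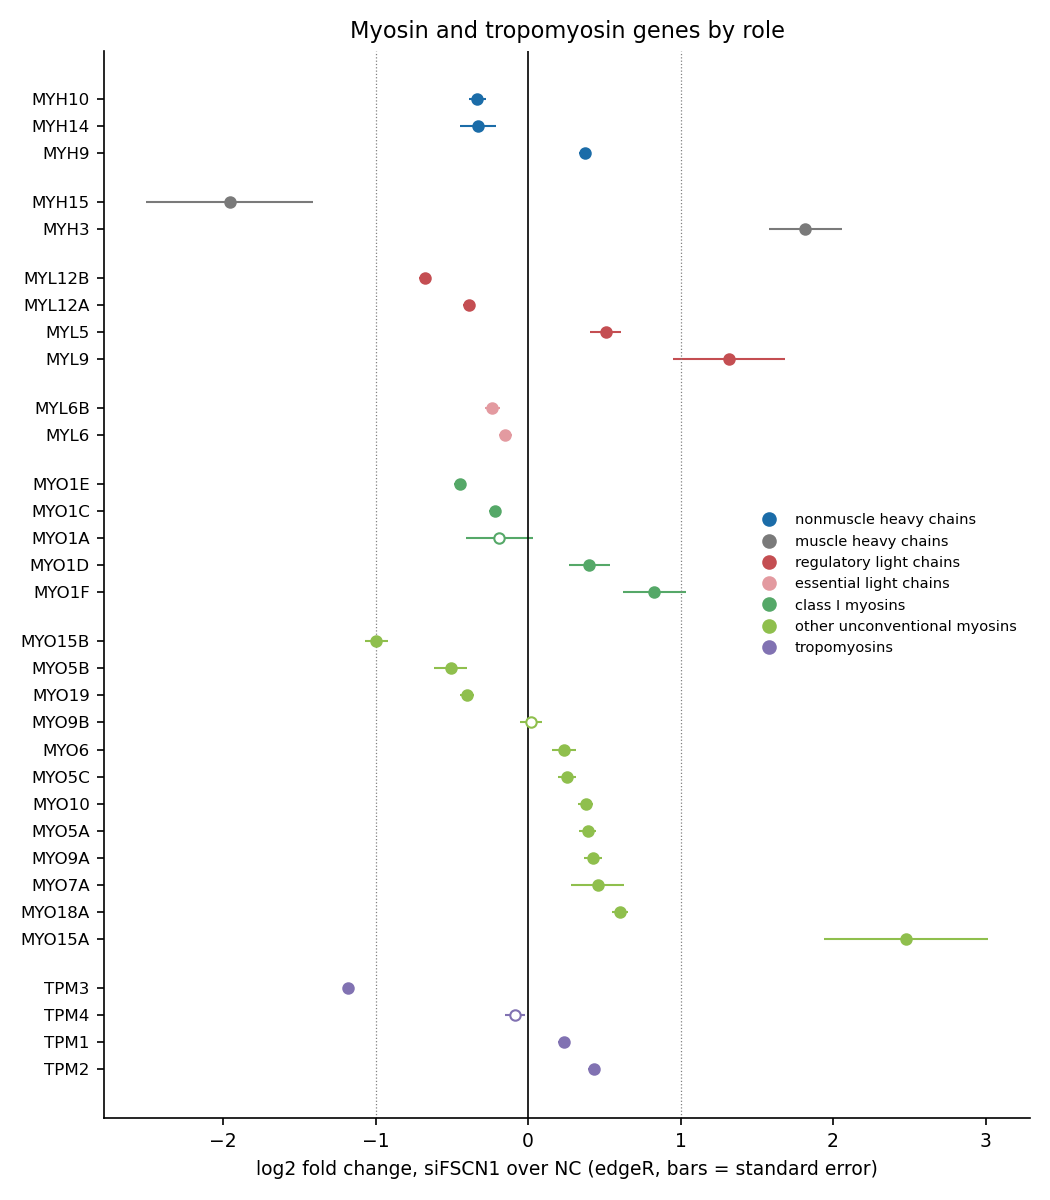
Log2 fold change (x axis, siFSCN1 over NC, edgeR) of 32 of the tested myosin and tropomyosin genes (y axis), coloured by role, with bars for the standard error. Filled points had an adjusted p under 0.05, open points did not, and dotted lines mark 2-fold. TPM3 at -1.18 lies apart from TPM1 and TPM2 above 0 and MYH9 lies opposite to MYH10 and MYH14. MYL6 (-0.15) and TPM4 (-0.08) lie above 0 when scaled by library totals (0.04 and 0.10).

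The direction depended on how the libraries were scaled for the genes near 0. The median over all genes tested was 0.15 with upper quartile scaling and 0.22 with library totals, against 0.03 with TMM, and these scalings move every gene by about the same amount. Of the 30 called genes, 25 kept their call and direction with TMM, RLE, upper quartile and library total scaling, 16 of them higher and 9 lower. The 5 others, among them MYH14, MYL6, MYL6B and MYO1C, were lower with TMM and were called neither with library totals, where MYL6 stood at 0.04, nor with limma on log2 FPKM. With library totals 17 genes were higher and 9 lower, so that 65.4% of the calls were higher, against 53.3% with TMM. Deposited FPKM carries no composition factor and therefore lies with library totals, and it is used below for levels between genes and for shares within a family, which no scaling moves.

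The most abundant members were mostly lower. Among the 12 genes with a mean of at least 5 FPKM, 3 were called higher (TPM2, MYH9 and TPM1), 8 lower and 1 was not called. Over the 5318 genes tested at this level, 23.2% were higher and 59.1% lower. The median log2 fold change was -0.22 for the 12 genes and also -0.22 for all genes at this level. Below 1 FPKM the median was 0.43 for 10 members and 0.40 for all 5969 genes, and between 1 and 5 FPKM it was 0.26 for 11 members and 0.05 for all 5788 genes. Across the 33 genes Spearman's correlation of the log2 fold change with the mean FPKM was -0.40, and across 17075 genes it was -0.37. These points come from the same 6 libraries, and the values describe them only.

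**Figure D2:**
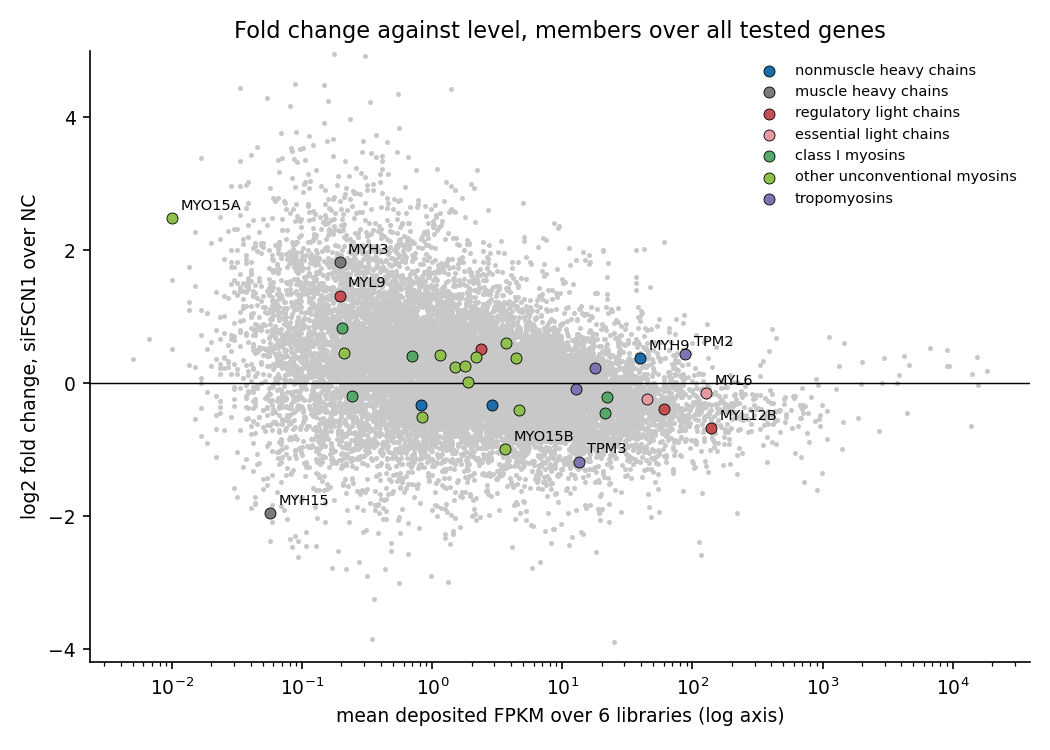
Log2 fold change (y axis, siFSCN1 over NC) against mean deposited FPKM over 6 libraries (x axis, log scale), with 17074 tested genes in grey and 32 members in colour by role. TPM3 and MYL12B lie below 0 and TPM2 and MYH9 above it at high levels, while MYO15A, MYH3, MYL9 and MYH15 lie at the low end. 6 genes lie outside the axis.

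Tropomyosins showed the widest spread among well expressed members. TPM3 (ENSG00000143549.21, GRCh38 chromosome 1, 154155308 to 154194648, minus strand) encodes a tropomyosin made in nonmuscle cells as well as in slow muscle fibres. Its level was 339.1, 346.0 and 338.8 CPM in NC replicates 1, 2 and 3 and 155.1, 144.6 and 152.6 CPM in siFSCN1. The groups lay far apart, and each siFSCN1 library was below every NC library. The log2 fold change was -1.18 ± 0.038 (SE; adjusted p = 1.85e-14), which left 44.2% of the NC level. With library totals the value was -0.99, short of 2-fold.

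TPM2 (ENSG00000198467.16, GRCh38 chromosome 9, 35681992 to 35690056, minus strand), whose product is best known from slow and smooth muscle and is also made in fibroblasts and epithelial lines, moved the other way. It measured 283.0, 273.7 and 286.2 CPM in NC and 385.0, 388.7 and 364.7 CPM in siFSCN1. Every siFSCN1 library was above every NC library, and the log2 fold change was 0.43 ± 0.038 (SE; adjusted p = 9.7e-09). TPM1 (ENSG00000140416.23, GRCh38 chromosome 15, 63042620 to 63071915, plus strand) measured 267.1, 269.3 and 259.8 CPM in NC and 303.4, 322.5 and 309.7 CPM in siFSCN1. Its groups did not overlap either, and its log2 fold change of 0.23 ± 0.037 (SE; adjusted p = 2.1e-05) was smaller than that of TPM2. TPM4 (ENSG00000167460.17, GRCh38 chromosome 19, 16067021 to 16103002, plus strand) measured 195.3, 177.0 and 201.3 CPM in NC and 205.1, 165.9 and 170.2 CPM in siFSCN1. These groups overlapped, since siFSCN1 replicate 1 was the highest of the 6 libraries, and the log2 fold change of -0.08 ± 0.064 (SE) was not called (adjusted p = 0.256). Without siFSCN1 replicate 1 TPM4 was called lower at -0.20 (adjusted p = 0.00113), and with library totals it stood at 0.10.

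The make-up of the tropomyosin pool, taken as each gene's percent of the summed FPKM of TPM1 to TPM4, shifted from TPM3 to TPM2. TPM2 held 60.7%, 60.3% and 61.0% in NC and 71.2%, 72.5% and 71.2% in siFSCN1. TPM3 held 15.3%, 16% and 15.2% in NC and 6.03%, 5.66% and 6.25% in siFSCN1. The group means were 60.6% ± 0.368 and 71.6% ± 0.722 (SD, n = 3) for TPM2, and 15.5% ± 0.455 and 5.98% ± 0.297 (SD, n = 3) for TPM3. TPM4 went from 10.6% ± 0.528 to 8.76% ± 0.919 (SD, n = 3), and TPM1 held 13.2% ± 0.454 in NC and 13.6% ± 0.557 in siFSCN1 (SD, n = 3). A two-sided exact permutation test gave p = 0.1 for TPM2, TPM3 and TPM4, the smallest that 3 against 3 libraries allow, and 0.109 after adjustment over 12 shares of gene families. For TPM1 the p was 0.4.

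The order of the tropomyosins in level depended on the length used. The deposited FPKM of the tropomyosins imply lengths of 0.937 to 1.00 times all exons annotated in GENCODE v44, which for TPM1 come to 14700 bases where the canonical transcript has 1217. Counts per base of canonical transcript, an alternative chosen after seeing the data, put TPM1 at 37.6% in NC and 38.3% in siFSCN1, TPM2 at 40.7% and 47.6%, and TPM3 at 8.34% and 3.19%. The shift from TPM3 to TPM2 held with either length, and the place of TPM1 did not. Within a library, where scaling drops out, TPM2 had 0.823 ± 0.0285 counts for each count of TPM3 in NC and 2.52 ± 0.152 in siFSCN1 (SD, n = 3), a 3.06-fold difference. The ratio of TPM1 to TPM3 went from 0.777 ± 0.0104 to 2.07 ± 0.142 (SD, n = 3). Of 8 such ratios, chosen after the values were seen, each had an exact permutation p of 0.1, also after adjustment.

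**Figure D3:**
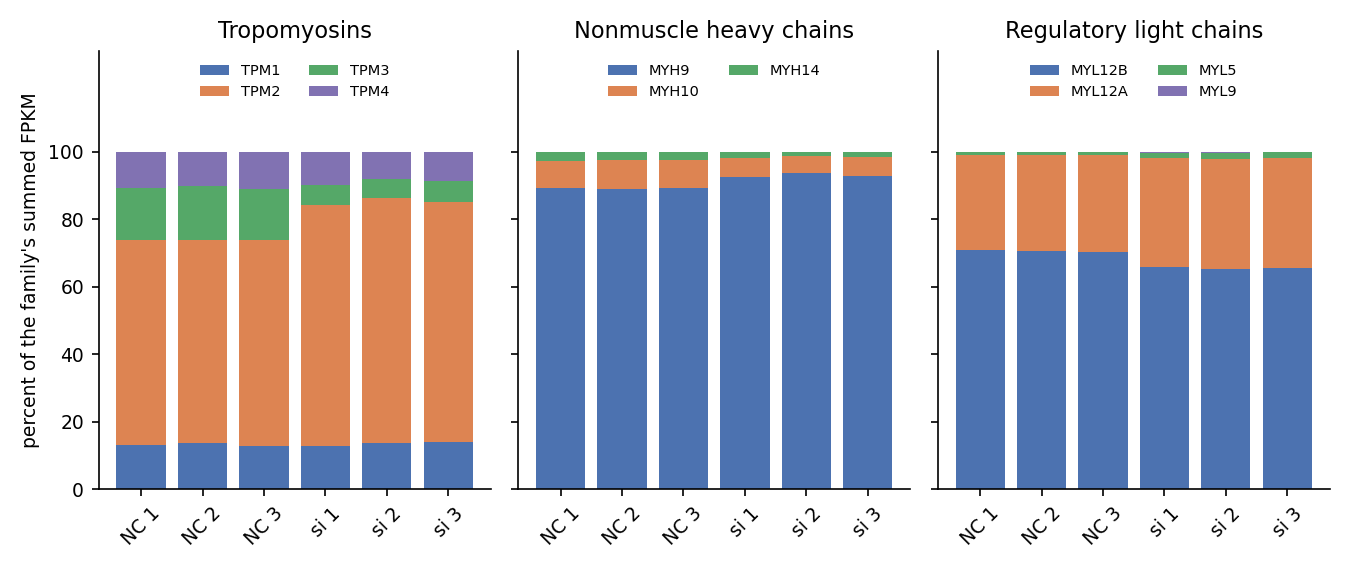
Percent of summed deposited FPKM (y axis) held by each gene of the tropomyosins, the nonmuscle heavy chains and the regulatory light chains in NC and siFSCN1 (si) replicates 1 to 3 (x axis). The TPM3 band shrinks from 15.5% to 5.98% on average, TPM2 widens from 60.6% to 71.6%, MYH9 widens from 89.2% to 93.1% and MYL12A widens from 28.5% to 32.4%.

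For each of these genes 1 start is shown because genes of one filament differed in direction, so that promoters can be set side by side. RefSeq (GRCh38.p14) gives the 250 bases before a start, here the first listed for each gene, read 5′ to 3′ along the gene. TPM2 and TPM3 have 2 listed windows, and TPM4 and MYL12B have 3. The printed windows of TPM1, TPM3, TPM4 and MYL12B lie inside the GENCODE v44 span of the gene, so they precede an internal start. The window of MYH9 lies partly inside its span, so that start is internal as well. Capitals mark a CArG box, the motif bound by serum response factor (SRF), or a CCAAT sequence on either strand.
TPM1, chr15:63048239-63048488, plus strand: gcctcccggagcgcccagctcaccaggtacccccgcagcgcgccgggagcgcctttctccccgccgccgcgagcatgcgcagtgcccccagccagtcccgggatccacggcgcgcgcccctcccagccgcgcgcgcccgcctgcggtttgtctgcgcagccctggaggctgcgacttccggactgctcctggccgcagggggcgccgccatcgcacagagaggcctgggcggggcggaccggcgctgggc
TPM2, chr9:35690057-35690306, minus strand: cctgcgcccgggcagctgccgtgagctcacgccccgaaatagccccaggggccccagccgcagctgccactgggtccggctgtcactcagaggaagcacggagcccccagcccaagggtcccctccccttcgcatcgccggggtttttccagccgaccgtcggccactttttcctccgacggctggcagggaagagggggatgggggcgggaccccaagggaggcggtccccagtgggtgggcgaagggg
TPM3, chr1:154183219-154183468, minus strand: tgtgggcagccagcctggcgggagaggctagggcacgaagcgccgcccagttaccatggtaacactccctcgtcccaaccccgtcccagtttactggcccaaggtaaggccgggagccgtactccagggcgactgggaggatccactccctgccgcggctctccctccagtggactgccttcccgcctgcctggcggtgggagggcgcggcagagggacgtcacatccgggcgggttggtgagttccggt
TPM4, chr19:16067288-16067537, plus strand: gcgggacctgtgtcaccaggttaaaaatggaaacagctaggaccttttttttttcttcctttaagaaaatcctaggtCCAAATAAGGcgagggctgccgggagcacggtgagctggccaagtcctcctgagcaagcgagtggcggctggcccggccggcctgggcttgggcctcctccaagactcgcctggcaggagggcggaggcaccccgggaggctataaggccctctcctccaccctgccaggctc
MYH9, chr22:36387968-36388217, minus strand: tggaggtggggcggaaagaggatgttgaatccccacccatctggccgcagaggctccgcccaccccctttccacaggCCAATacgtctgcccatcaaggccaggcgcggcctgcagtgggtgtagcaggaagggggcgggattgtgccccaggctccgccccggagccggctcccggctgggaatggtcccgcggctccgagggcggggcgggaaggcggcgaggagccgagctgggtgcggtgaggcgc
MYL12B, chr18:3261883-3262132, plus strand: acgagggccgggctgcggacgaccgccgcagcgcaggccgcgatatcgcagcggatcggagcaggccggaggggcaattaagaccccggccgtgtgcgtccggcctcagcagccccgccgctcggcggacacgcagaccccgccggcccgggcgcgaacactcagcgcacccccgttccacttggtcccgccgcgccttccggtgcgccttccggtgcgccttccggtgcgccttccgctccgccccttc

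Of these 6 windows, that of TPM4 holds 1 CArG box and that of MYH9 holds 1 CCAAT, and each begins 173 bases before the start. MYL12B has a CCAAT in a window that is not printed. GC content runs from 61.2% for TPM4 to 78.4% for TPM1, against a median of 58.0% over all 35116 windows in the table. Of the 33 tested genes 29 had at least 1 window, 43 windows in all. A CArG box was found in 3 of these windows (7.0%), those of TPM4, MYO1E and MYO1A, and in 1.16% of all windows. CCAAT was found in 12 (27.9%) and in 32.0% of all windows, and TATAAA in 2 (4.7%) and in 10.7% of all windows. The CArG box was searched with A or T allowed at each of its middle positions, the others by their letters, all on both strands, and no CArG box overlapped a CCAAT in the windows printed. The 3 genes with a CArG box had log2 fold changes of -0.08 (TPM4, not called), -0.45 (MYO1E) and -0.19 (MYO1A, not called). MYL9, MYH3 and MYO7A were among those without a window.

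The nonmuscle heavy chains divided in the same way. MYH9 (ENSG00000100345.22, GRCh38 chromosome 22, 36281280 to 36388010, minus strand), the heavy chain of nonmuscle myosin IIA and by FPKM the main one in A549 cells, measured 364.7, 366.2 and 347.9 CPM in NC and 449.5, 469.8 and 477.9 CPM in siFSCN1. The siFSCN1 libraries all lay above the NC libraries, with a log2 fold change of 0.37 ± 0.038 (SE; adjusted p = 7.44e-08). MYH10 (ENSG00000133026.13, GRCh38 chromosome 17, 8474207 to 8631376, minus strand), the heavy chain of nonmuscle myosin IIB, was lower at 27.3 CPM ± 1.41 against 34.4 CPM ± 1.91 in NC (SD, n = 3), a log2 fold change of -0.33 ± 0.056 (SE). Limma on log2(FPKM + 0.1) and log2(FPKM + 1) did not call MYH10 (-0.16, adjusted p = 0.15, and -0.13, adjusted p = 0.0899). MYH14, the heavy chain of nonmuscle myosin IIC, had a log2 fold change of -0.33 ± 0.119 (SE; adjusted p = 0.0208). The call of MYH14 was lost with upper quartile scaling (-0.21), library totals (-0.14) and both limma fits (-0.15 and -0.07), without NC replicate 1 (-0.29) and without siFSCN1 replicate 2 (-0.22).

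MYH9 held 89.2% ± 0.217 of the summed FPKM of the 3 nonmuscle heavy chains in NC and 93.1% ± 0.567 in siFSCN1 (SD, n = 3), with an exact permutation p of 0.1, adjusted 0.109. MYH10 went from 8.44% ± 0.314 to 5.39% ± 0.303 and MYH14 from 2.41% ± 0.124 to 1.55% ± 0.267 (SD, n = 3). The summed FPKM of the 3 genes was 36.0 ± 0.856 in NC and 50.1 ± 1.09 in siFSCN1 (SD, n = 3), and their summed CPM after TMM rose as well, from 405.4 ± 12.0 to 502 ± 13.9. The deposited FPKM of MYH9 and MYH10 correspond to exon lengths of 0.523 and 0.275 times those in GENCODE v44, and those of MYO5A and MYO18A to 0.287 and 0.792 times, for which the cause was not tested. With canonical lengths the share of MYH9 was 88.8% in NC and 92.8% in siFSCN1.

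The regulatory light chains that pair with these heavy chains were lower. MYL12B (ENSG00000118680.14, GRCh38 chromosome 18, 3261479 to 3278461, plus strand) measured 359.3, 350.2 and 357.0 CPM in NC and 232.8, 222.1 and 211.7 CPM in siFSCN1. The groups lay well apart, and the log2 fold change was -0.68 ± 0.040 (SE; adjusted p = 3.89e-11). MYL12A (ENSG00000101608.13, GRCh38 chromosome 18, 3247481 to 3256236, plus strand) measured 247.0, 246.7 and 255.7 CPM in NC and 197.7, 193.2 and 182.5 CPM in siFSCN1. It was also lower in each siFSCN1 library, by a smaller amount, with a log2 fold change of -0.39 ± 0.039 (SE; adjusted p = 8.45e-08). MYL12A and MYL12B lie 5.2 kb apart on the same strand of chromosome 18 and encode near-identical proteins, and a gene on the other strand (MYL12-AS1) overlaps exons of both, so reads may be split between them.

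MYL12A rose from 28.5% ± 0.432 to 32.4% ± 0.226 of the summed FPKM of the regulatory light chains and MYL12B fell from 70.7% ± 0.385 to 65.7% ± 0.331 (SD, n = 3; exact permutation p of 0.1, adjusted 0.109). MYL5, a regulatory light chain known from developing muscle and retina, was higher at 14.1 CPM ± 1.03 against 9.88 CPM ± 0.744 in NC (SD, n = 3), a log2 fold change of 0.51 ± 0.10 (SE). Exons of MYL5 overlap ATP5ME and SLC49A3 on the opposite strand, and the part of their reads in the MYL5 value was not tested. MYL9 (ENSG00000101335.10, GRCh38 chromosome 20, 36541497 to 36551447, plus strand), the regulatory light chain best known from smooth muscle, was present at a trace. It had 6, 14 and 12 counts in NC and 31, 37 and 23 counts in siFSCN1, and a log2 fold change of 1.32 ± 0.366 (SE; adjusted p = 0.00395). All siFSCN1 counts lay above those of NC, but MYL9 held 0.163% of the regulatory light chain FPKM in siFSCN1. MYH9 and the MYL12 genes therefore moved apart within each library. For each count of MYL12A plus MYL12B there were 0.601, 0.614 and 0.568 counts of MYH9 in NC and 1.04, 1.13 and 1.21 in siFSCN1, a 1.90-fold difference (exact permutation p of 0.1).

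The essential light chains differed little. MYL6 (ENSG00000092841.19, GRCh38 chromosome 12, 56158346 to 56163496, plus strand), the common essential light chain of nonmuscle and smooth muscle myosin, measured 727.9, 695.8 and 692.0 CPM in NC and 665.9, 653.4 and 588.5 CPM in siFSCN1. The groups did not overlap with TMM, and the log2 fold change was -0.15 ± 0.044 (SE; adjusted p = 0.00633), but it was -0.03 with upper quartile scaling and 0.04 with library totals, neither called. MYL6B measured 194.1, 182.8 and 183.4 CPM in NC and 168.9, 159.1 and 148.4 CPM in siFSCN1. Its log2 fold change of -0.23 ± 0.046 (SE; adjusted p = 0.000203) was not called with library totals (-0.05). MYL6 and MYL6B overlap by 1.3 kb on the same strand of chromosome 12, and MYL6 has 5 named pseudogenes, so that the division of reads between them is uncertain.

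**Figure D4:**
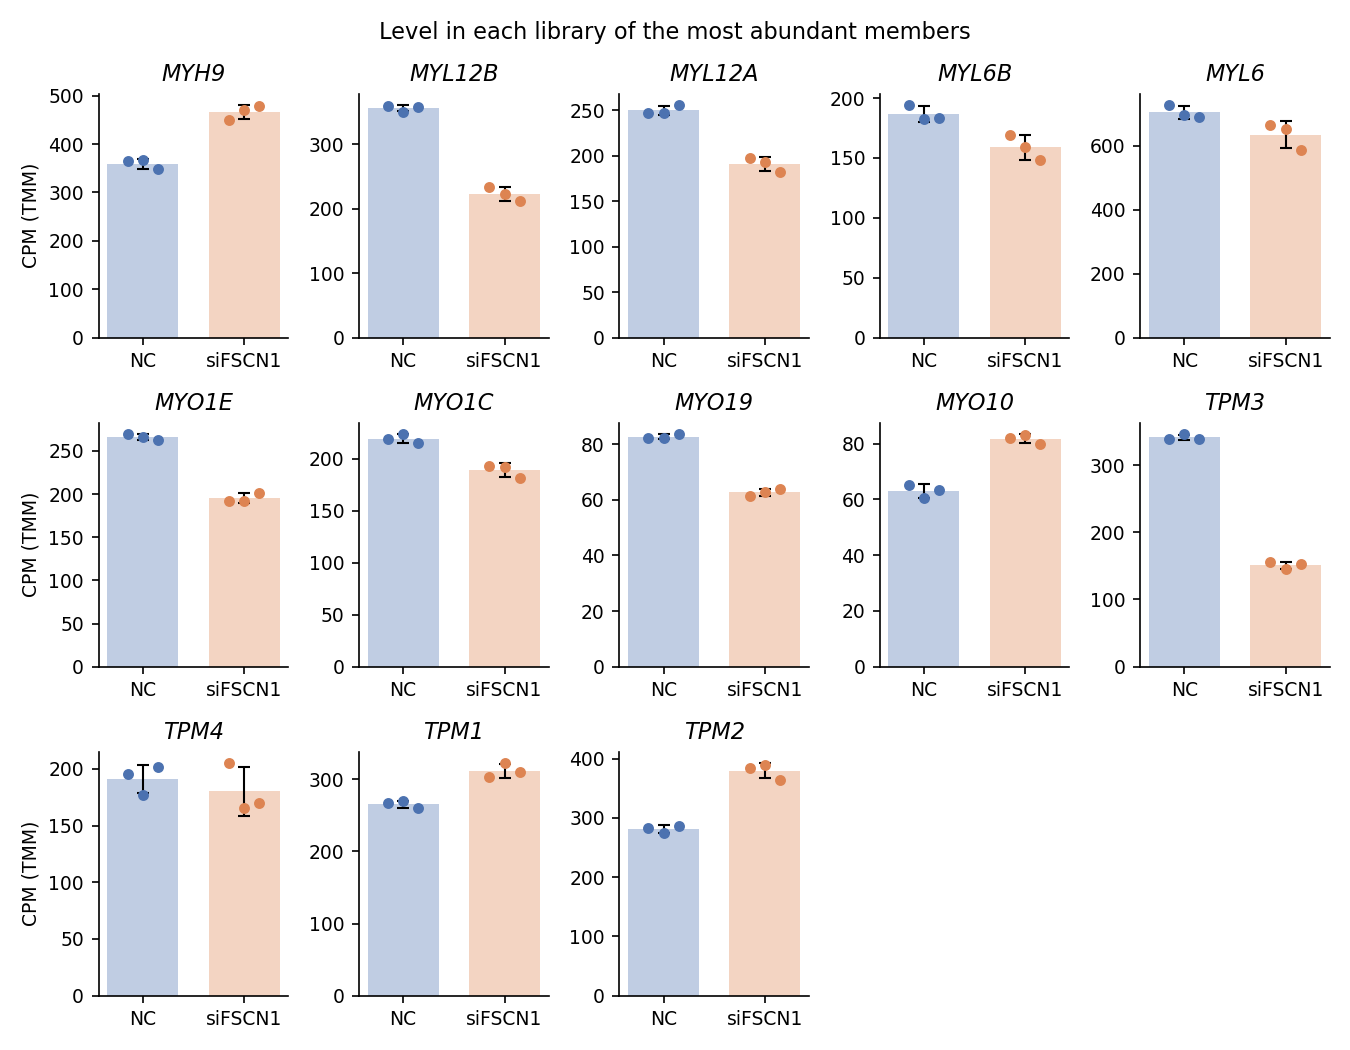
CPM after TMM scaling (y axis) in NC and siFSCN1 (x axis) of 13 members with a mean of at least 5 FPKM in a group, with a point for each library, bars for the mean and error bars for the SD (n = 3). TPM2, TPM1, MYH9 and MYO10 are higher in siFSCN1, TPM4 overlaps between groups, and the other 8 are lower with TMM. MYL6 and TPM4 lie above NC when scaled by library totals.

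Among the unconventional myosins the class I genes of high level were lower. Class I myosins are single-headed motors that link membranes to actin. MYO1E (ENSG00000157483.9, GRCh38 chromosome 15, 59132434 to 59372871, minus strand), which acts at sites of endocytosis and adhesion, measured 269.3, 266.5 and 262.8 CPM in NC and 192.0, 192.0 and 201.7 CPM in siFSCN1, a log2 fold change of -0.45 ± 0.037 (SE; adjusted p = 4.95e-09). Its groups lay apart by more than the spread within either. MYO1C, which takes part in membrane traffic to the cell surface, measured 219.0, 223.6 and 214.9 CPM in NC and 193.4, 192.2 and 181.1 CPM in siFSCN1 (log2 fold change of -0.21 ± 0.039, SE). MYO1C was not called with library totals (-0.03).

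The class I genes of low level went up or were not called. MYO1F, known from immune cells, had 46, 42 and 42 counts in NC and 106, 88 and 69 counts in siFSCN1, with a log2 fold change of 0.83 ± 0.205 (SE; adjusted p = 0.00165). MYO1D had a log2 fold change of 0.40 ± 0.135 (SE), and was not called without NC replicate 2 (0.24), its lowest library. MYO1A, known from the intestinal brush border, measured 1.36 CPM ± 0.125 in NC and 1.19 CPM ± 0.0709 in siFSCN1 (SD, n = 3) and was not called (-0.19, adjusted p = 0.463). The summed CPM after TMM of the class I genes was 660.5 ± 7.40 in NC and 537.5 ± 8.94 in siFSCN1 (SD, n = 3), and the ratio was 0.814 (exact permutation p = 0.1). By library totals it was 0.927.

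Of the 12 other unconventional myosins tested, 8 were higher and 3 lower, where 35.1% of all genes tested were higher and 33.2% lower. MYO10 (ENSG00000145555.15, GRCh38 chromosome 5, 16661907 to 16936288, minus strand), which moves to the tips of filopodia along the actin bundles that fascin makes, measured 65.3, 60.4 and 63.3 CPM in NC and 82.2, 83.2 and 80.02 CPM in siFSCN1. The siFSCN1 libraries were all above NC, and the log2 fold change was 0.38 ± 0.047 (SE; adjusted p = 1.11e-06). MYO18A, which links the Golgi to actin, was higher at 77.9 CPM ± 3.67 against 51.4 CPM ± 2.74 in NC (SD, n = 3), a log2 fold change of 0.60 ± 0.053 (SE). MYO9A was higher by 0.43 ± 0.059 (log2, SE). Its relative MYO9B was not called (0.02 ± 0.073, SE, adjusted p = 0.837), and its sign turned without NC replicate 2 (-0.08) and without siFSCN1 replicate 1 (-0.04). With library totals MYO9B was called higher (0.20, adjusted p = 0.016).

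MYO19 (ENSG00000278259.5, GRCh38 chromosome 17, 36495636 to 36543435, minus strand), a motor on the mitochondrial surface, was lower and tight among replicates. It measured 82.1, 82.2 and 83.6 CPM in NC and 61.3, 62.7 and 64.0 CPM in siFSCN1, a log2 fold change of -0.40 ± 0.045 (SE; adjusted p = 2.93e-07). MYO15B (ENSG00000266714.9, GRCh38 chromosome 17, 75587800 to 75626849, plus strand) measured 80.7, 70.9 and 77.6 CPM in NC and 44.3, 36.1 and 34.5 CPM in siFSCN1. All siFSCN1 libraries lay below NC, and the log2 fold change of -0.996 ± 0.075 (SE; adjusted p = 1.35e-09) stopped just short of 2-fold, which it passed with RLE scaling, with DESeq2, without a filter, with the replicate block, without NC replicate 2 and without siFSCN1 replicate 1. It lay farther from 2-fold with upper quartile scaling (-0.88), library totals (-0.81) and limma (-0.81 and -0.65). MYO15B shares exonic sequence on the opposite strand with RECQL5, which was higher in siFSCN1 at 0.53 ± 0.063 (SE). How the counting treated strand is not given in the sources used here, so the 2 genes may share reads, and the part of such reads in either value was not tested. Exons of MYO19 overlap PIGW and ZNHIT3 on the opposite strand, and the part of their reads was not tested either.

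The class V myosins, which carry vesicles along actin, differed among themselves. MYO5A, the melanosome carrier of pigment cells, was higher at 37.2 CPM ± 1.92 against 28.4 CPM ± 1.45 in NC (SD, n = 3), a log2 fold change of 0.39 ± 0.056 (SE). MYO5C, an epithelial member whose gene lies 11.5 kb from MYO5A on chromosome 15, was higher by 0.26 ± 0.059 (log2, SE). MYO5B, the motor of recycling endosomes, was lower at 8.71 CPM ± 1.01 against 12.4 CPM ± 0.349 in NC (SD, n = 3), a log2 fold change of -0.51 ± 0.108 (SE). With limma on log2(FPKM + 0.1) MYO5B was not called (-0.31, adjusted p = 0.0558), and with limma on log2(FPKM + 1) it was called at -0.16. Within libraries the counts of MYO5A were 2.29 ± 0.0881 times those of MYO5B in NC and 4.32 ± 0.713 times in siFSCN1 (SD, n = 3; exact permutation p of 0.1).

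MYO6, which moves in the reverse direction to other myosins, was higher by 0.24 ± 0.077 (log2, SE; adjusted p = 0.0113), and was not called without NC replicate 1 (0.20), NC replicate 3 (0.23) or siFSCN1 replicate 3 (0.13). MYO7A, a motor of the sensory hair bundle, was higher by 0.46 ± 0.172 (log2, SE; adjusted p = 0.0255), and was not called without NC replicate 2 (0.31), siFSCN1 replicate 1 (0.40) or siFSCN1 replicate 3 (0.43), nor by DESeq2 (0.44). MYO15A, also a hair bundle motor, had 1, 3 and 3 counts in NC and 19, 13 and 14 counts in siFSCN1. The fitted log2 fold change was 2.48 ± 0.537 (SE; adjusted p = 0.000514), a value that depends on the prior count at this depth.

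Sarcomeric heavy chains were at trace levels. MYH3 (ENSG00000109063.15, GRCh38 chromosome 17, 10628526 to 10657309, minus strand), the embryonic skeletal heavy chain, had 23, 13 and 23 counts in NC and 67, 82 and 87 counts in siFSCN1, with a log2 fold change of 1.82 ± 0.238 (SE; adjusted p = 2.05e-06). Its mean FPKM was 0.0767 in NC and 0.310 in siFSCN1. MYH15 had 13, 23 and 41 counts in NC and 11, 0 and 11 counts in siFSCN1, with a log2 fold change of -1.96 ± 0.547 (SE; adjusted p = 0.00411), and DESeq2 did not call it (-1.98, adjusted p = 0.110), nor did limma (-0.56 and -0.08). The NC counts of MYH15 ran over a wide range, and siFSCN1 replicates 1 and 3 were near the lowest of them.

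Another 13 members did not pass the filter, and no library held more than 18 counts of any of them. These were MYH6, MYH7B, MYH11, MYL2, MYL3, MYL4, MYO1G, MYO1H, MYO3A, MYO3B, MYO7B, MYO16 and MYO18B. The sum of counts was greater in siFSCN1 for 10 of the 13, against 61.65% of all 13154 genes that had a count and did not pass the filter. MYH7B, singled out after its values were seen, had 0, 0 and 1 counts in NC and 10, 5 and 18 counts in siFSCN1. At this depth no difference in the others could be measured. A further 11 genes of these families, most of them sarcomeric, had no row in the table used here or were no protein-coding gene.

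Summed per length, the total level of the members differed between groups by less than 1 SD of siFSCN1. This sum leaves out MYO3B, which had no FPKM value. The summed FPKM was 641.6, 631.8 and 643.8 in NC and 654.2, 625.0 and 602.9 in siFSCN1, and their ratio was 0.982 (two-sided exact permutation test, p = 0.6). The ratio of summed CPM was 0.912 with TMM and 1.04 with library totals, each with an exact p of 0.1. By role, the summed FPKM of the regulatory light chains went from 230.2 ± 3.75 to 173.7 ± 9.31 and that of the nonmuscle heavy chains from 36.0 ± 0.856 to 50.1 ± 1.09, and each direction held for summed CPM with TMM and with library totals. The summed FPKM of the tropomyosins was 115.7 ± 2.40 in NC and 148.5 ± 5.19 in siFSCN1 (SD, n = 3), while their summed CPM after TMM was 1079 ± 11.2 in NC and 1023 ± 25.7 in siFSCN1, so the direction of this total depended on the measure.

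Genes that act on myosin or share its filaments were counted over 6 lists, with 99 genes tested. Of these, 40 were higher, 36 lower and 23 not called, with 3 higher and 4 lower by at least 2-fold, and their median log2 fold change was 0.02. Over all genes tested 35.1% were higher and 33.2% lower, and 11.7% were higher and 4.85% lower by at least 2-fold, so the shares of the partner genes lay near the background or below it for 2-fold higher calls. In the list of light chain kinases and phosphatase subunits, 12 of 23 genes were higher and 7 lower, against 35.1% and 33.2% of all genes. PPP1R14A, which blocks myosin phosphatase, went from 125.9 CPM ± 1.12 to 49.6 CPM ± 3.92 (SD, n = 3), a log2 fold change of -1.34 ± 0.052 (SE; adjusted p = 1.61e-13). Its relative PPP1R14B was higher by 0.42 ± 0.047 (log2, SE). CDC42BPA, a kinase that acts downstream of Cdc42, was higher by 1.01 ± 0.059 (log2, SE). MYLK, the light chain kinase itself, was higher at 50.9 CPM ± 3.43 against 26.4 CPM ± 1.91 in NC (SD, n = 3), a log2 fold change of 0.95, and ROCK2, a kinase of the light chains, was higher by 0.40 (log2). Other kinases of the list did not follow them, since ROCK1 was not called (0.07, adjusted p = 0.269) and DAPK3 and STK17B were lower (-0.52 and -0.76). MYLK, ROCK1, ROCK2, DAPK3 and STK17B were chosen after their values were seen. The calmodulin genes, whose product activates MYLK, differed, with CALM2 at -0.56 and CALM3 at 0.22.

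Of 14 thin filament partners 4 were higher, 3 lower and 7 not called, where 35.1% of all genes tested were higher and 33.2% lower. Among those not called were CNN2 (0.01), CNN3 (0.03) and TMOD3 (0.07), which are among the most abundant of the list. ANLN was lower at -0.49. SVIL, which binds actin and myosin II at the membrane, was higher by 1.02 (log2), CALD1, which holds back myosin on actin, was higher by 0.52 (log2), and TNNT1, a troponin of slow muscle, was lower at -0.59. TNNT2 was called at 2.29, from 1, 0 and 6 counts in NC and 12, 14 and 14 counts in siFSCN1. The value was 4.17 without NC replicate 3, which held 6 of the NC counts, and 0.46 and 0.06 with limma on log2(FPKM + 0.1) and log2(FPKM + 1).

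Among chaperones, adaptors and regulators of myosin, 8 of 18 were higher and 7 lower, against 35.1% and 33.2% of all genes tested. S100A4, which binds the tail of the MYH9 product, was lower at 801.9 CPM ± 38.0 against 1185 CPM ± 55.7 in NC (SD, n = 3), a log2 fold change of -0.56 ± 0.043 (SE). LLGL1, a polarity protein that binds nonmuscle myosin II, was lower at -1.10 ± 0.063 (SE). DYNLL1, a light chain of dynein and class V myosins, and GIPC1, an adaptor of MYO6, were lower at -0.42 and -0.21, the latter not called with library totals (-0.03). Among the higher genes were DYNLL2 (0.56), MLPH (0.40), EPS8 (0.56) and UNC45A (0.29), named after their values were seen.

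SRF and its actin-sensing cofactors drive many cytoskeletal genes. SRF (0.33 ± 0.051, SE), MRTFA (0.52 ± 0.054, SE) and MRTFB (0.59 ± 0.066, SE, chosen after its value was seen) were each higher. Of the 8 tested genes in this list 4 were higher and 2 lower, where 35.1% of all genes tested were higher and 33.2% lower. Of 18 cytoskeletal genes known to depend on SRF, 6 were higher and 9 lower, against 35.1% and 33.2% of all genes tested and 23.2% and 59.1% of those of at least 5 FPKM. ACTG1, which encodes gamma actin, was lower at -1.48 ± 0.047 (SE) and TAGLN2 at -1.36 ± 0.051 (SE). CFL1 and DSTN were also lower, at -0.37 and -0.24, and FLNA was higher at 0.29. ACTB, which encodes beta actin, was not called (-0.03, adjusted p = 0.531), but was called higher with library totals (0.16).

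**Figure D5:**
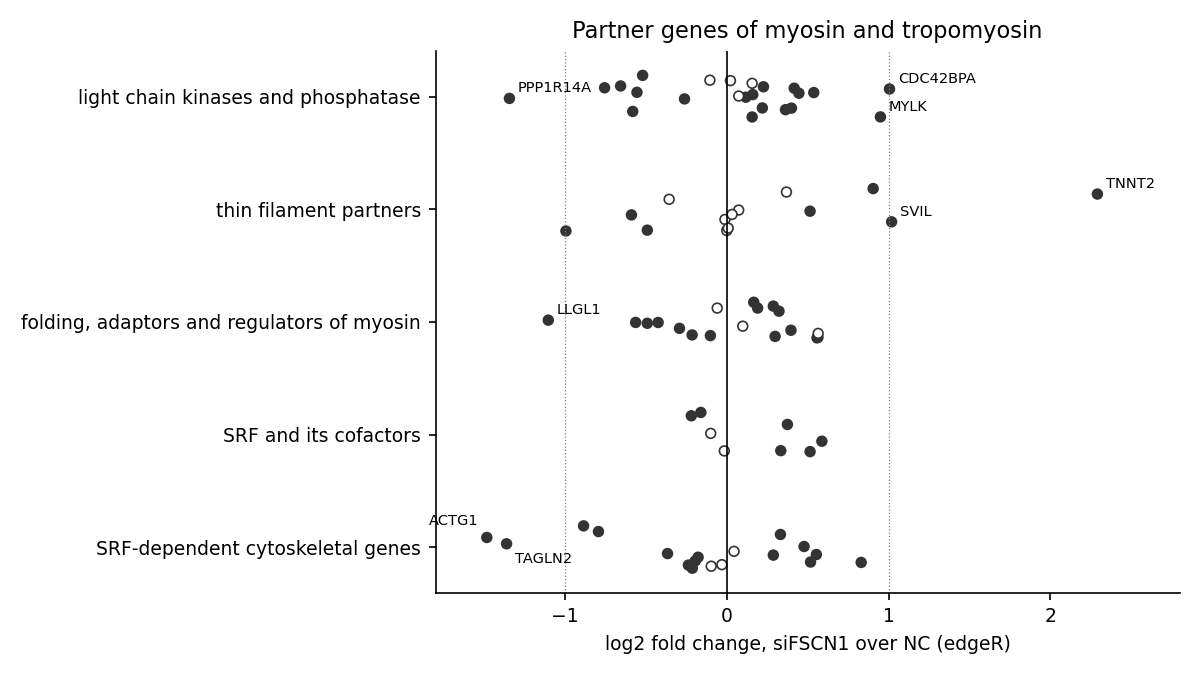
Log2 fold change (x axis, siFSCN1 over NC, edgeR) of the tested genes of 5 partner lists (y axis), 1 point a gene, spread vertically at random. Filled points had an adjusted p under 0.05, open points did not, and dotted lines mark 2-fold. Each list has genes on both sides of 0, and ACTG1 (-1.48) and TNNT2 (2.29, from few counts) lie farthest out.

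TPM3 was the member of highest level with a change of 2-fold. TPM3 has 9 named pseudogenes, and the methods of the study name uniquely mapped reads. The pseudogene with most counts, TPM3P9, measured 7.44, 7.29 and 7.82 CPM in NC and 7.03, 7.19 and 7.41 CPM in siFSCN1, with a log2 fold change of -0.06 ± 0.106 (SE; adjusted p = 0.625). The groups of TPM3P9 overlapped. The part of pseudogene reads in the TPM3 value was not tested.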

How the data were processed

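Polyadenylated RNA of 6 libraries was measured, and the sample titles gave each library its group and replicate number. The authors deposited raw counts per gene and FPKM values, made from trimmed reads aligned to GRCh38. The study's methods name HISAT2 and uniquely mapped reads, while the submitters' processing notes name TopHat2 and bcl2fastq. How reads were counted, with which strand setting and which annotation release, is not given in the sources used here. The methods and the labels name different stranded kits.

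Counts were filtered with filterByExpr, scaled by TMM and compared with edgeR's quasi-likelihood test without covariate (edgeR 4.0.16, R 4.3.3), with Benjamini-Hochberg adjustment over 17076 genes. A gene was called at an adjusted p under 0.05, and as 2-fold with a fold change of at least 2 besides. The test was checked on simulated counts in which few genes changed, equally in both directions. This check does not bear on the choice of scaling. Tested members were named, with values in every library for those of at least 5 FPKM in a group, and partner genes were named if changed 2-fold or among the first 6 of their list by FPKM. Of these, 1 member and 1 partner list are counted but not reported here. Members and lists were chosen with earlier results of these data known. Family shares and sums were compared by an exact two-sided permutation test (scipy 1.17.1), which cannot go under 0.1 with 3 against 3 libraries. No source names separate cultures for each library beyond calling them biological replicates, so p-values measure the spread between these libraries. Depths were 27967301 to 36560919 counts. Positions, lengths and overlaps came from GENCODE v44 (GRCh38), in which 30147 of 30230 identifiers were found, and promoters from RefSeq.

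The alternatives were RLE, upper quartile and library total scaling, DESeq2 1.42.0, no filter, a stricter filter (at least 1 CPM in 3 libraries besides a mean of 10 counts), a block for replicate number, each library left out in turn, limma 3.58.1 on log2(FPKM + 0.1) and log2(FPKM + 1), genes of at least 1 FPKM, shares of raw counts and, chosen after seeing the data, counts per canonical transcript length.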

Additional observations from a re-analysis of the deposited data

How the results depend on the processing

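FSCN1 kept its call under all alternatives (-4.11 to -3.41). Over 515 refits of single members, 473 kept direction and call and 9 changed sign. The 16 higher members became 10 among genes of at least 1 FPKM, where fewer genes are tested, and otherwise numbered 14 to 17. The 14 lower members became 9 with library totals, 6 with limma at a pseudocount of 0.1 FPKM and 7 at 1 FPKM, and higher members made up 65.4%, 73.9% and 68.2% of these calls against 53.3%. Leaving out a library gave 14 to 16 higher, 13 to 15 lower and 5 to 6 changed 2-fold. The 5 members changed 2-fold became 2 with the stricter filter, 2 with limma at 0.1 FPKM, 0 at 1 FPKM, where the pseudocount shrinks low genes, and 1 among genes of at least 1 FPKM. At 1 FPKM 15 members were higher and 7 lower at an adjusted p under 0.05. Lower partner genes became 22 with limma at 0.1 FPKM, against 36. Leaving out a library gave 70 to 76 changed partner genes.

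Direction changed for MYL6 with library totals (0.038) and limma (0.015 and 0.015), for TPM4 with upper quartile (0.034), library totals (0.103) and limma (0.078 and 0.073 for pseudocounts 0.1 and 1), for MYO9B without NC replicate 2 (-0.076) or siFSCN1 replicate 1 (-0.040) in a range up to 0.074 leaving out a library, and for ACTB with upper quartile (0.088), library totals (0.156) and limma (0.135 and 0.135). The shifts with scaling follow the medians of all genes, 0.149 and 0.218. The other causes were not tested.

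The difference in share, siFSCN1 minus NC in percentage points, was 0.371 for TPM1, 11.0 for TPM2, -9.50 for TPM3 and -1.85 for TPM4 by FPKM. By raw counts it was 5.92 for TPM1, -16.9 for TPM3 and -0.0903 for TPM4, and by canonical length 6.90 for TPM2 and -5.15 for TPM3. The summed level ratio of 0.982 was 0.912 by CPM with TMM, 1.04 with library totals and 0.961 to 1.00 leaving out a library, the last without siFSCN1 replicate 3.

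Same-numbered libraries hardly shared their deviations from the group means (correlations of -0.035, 0.04 and -0.084), which does not settle whether they were prepared as pairs. With the replicate number as a block 16 members were higher and 14 lower, 6 were changed 2-fold (MYO15B joined), 77 partner genes changed and FSCN1 stood at -3.90.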

Other observations

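Loci related to the members had low counts. TPM1-AS, on the strand opposite to TPM1, measured 0.726, 1.44 and 0.671 CPM in NC and 0.755, 0.971 and 0.941 CPM in siFSCN1, with a log2 fold change of -0.06 and a standard error of 0.314 (adjusted p = 0.865). MYL12BP1, TPM3P6, MYO16-AS1 and MYO5BP2 did not pass the filter on low counts.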
